A study of Homo sapiens with 13 samples.

Results

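Immediate early genes are transcribed within minutes of a growth or stress signal and, with the feedback genes of the mitogen-activated protein kinase (MAPK) pathways, form a group of 40 listed genes. Of these, 39 were measured among 18404 genes in SW480, a human cell line established from a colon cancer; EGR2 was not analysed here. They were chosen by name and set in 5 role groups: 7 AP-1 subunits, 6 EGR and KLF factors, 7 dual-specificity phosphatases (DUSP), 7 Sprouty, Spred and ETV genes, and 12 other immediate early genes. DFO (deferoxamine) and Deferasirox are drugs given to remove excess iron from the body. The question was what iron chelators do to the transcriptome of these cells. Affymetrix Human Gene 1.0 ST arrays, 13 in all, measured RNA after 6 h in OICR623 (10 mM as labelled, 2 arrays), Deferasirox (50 mM, 3 arrays), DFO (100 mM, 4 arrays) or the solvent DMSO (0.1 percent, 4 arrays). These mM doses, which differ between the compounds, are high for cultured cells, and nothing in the labels settles the unit. OICR623 is a code name. All groups were 1 cell line, and the replicates are described as independent experiments.

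Growth factor receptors and Ras activate the kinases RAF, MEK and ERK, and ERK drives transcription of FOS, EGR1 and other immediate early genes through serum response factor and its partners of the ELK family. Stress signals reach an overlapping set of genes through the kinases JNK and p38. Several of the induced genes close the loop: DUSP proteins remove phosphate from MAPKs, Sprouty and Spred proteins restrain Ras and RAF, and ETV4 and ETV5 are transcription factors whose levels follow ERK activity.

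Promoter sequence is shown for FOSL2 because it was called under all 3 compounds, as were KLF10 and DUSP5, which had no entry, and for DUSP1 because it had the second largest difference of the group under DFO. Both were thus chosen by their values, FOSL2 by the naming rule and DUSP1 after its values were seen. Both are the 250 bases before the annotated start, 5′ to 3′ on the gene's own strand, taken from RefSeq (GRCh38.p14). FOSL2 lies at chr2:28392608-28392857 on the plus strand and DUSP1 at chr5:172771196-172771445 on the minus strand. Capitals mark the letters ACGTG, the core of the hypoxia response element bound by hypoxia-inducible factor, read on either strand, and TGACGTCA, the cyclic AMP response element.
FOSL2: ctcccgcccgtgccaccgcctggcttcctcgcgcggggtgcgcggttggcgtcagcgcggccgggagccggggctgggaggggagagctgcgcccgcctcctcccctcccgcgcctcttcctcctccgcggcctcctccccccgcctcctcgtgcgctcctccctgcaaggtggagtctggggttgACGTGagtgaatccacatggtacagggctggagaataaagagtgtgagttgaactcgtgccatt
DUSP1: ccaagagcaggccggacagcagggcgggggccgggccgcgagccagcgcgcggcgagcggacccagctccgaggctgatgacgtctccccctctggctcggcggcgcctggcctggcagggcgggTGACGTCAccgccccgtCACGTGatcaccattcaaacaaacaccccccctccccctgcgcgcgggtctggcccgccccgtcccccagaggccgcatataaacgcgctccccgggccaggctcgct
In FOSL2 the core ACGTG began at base -64 counted from the start. In DUSP1 TGACGTCA began at -125, and the palindrome CACGTG held the core on both strands, at -108 and -107. Promoters of 29 of the 40 members were found among 27305 promoters searched over the same 250 bases on both strands. ACGTG was present in 9 of the 29, against 18.7% of all promoters; 4 of these 9 were among the 11 called members with a promoter and 5 (DUSP2, EGR1, IER2, KLF4 and NR4A3) among the 17 not called. TGACGTCA was present in 4 (DUSP1, DUSP8, JUND and MAFF), against 1.77% of all. The AP-1 motif TGANTCA was in 0 of the 29, against 6.6% of all. The CArG box, bound by serum response factor, was in 1 (EGR1), against 1.14%. The EGR motif GCGNGGGCG was in 7, against 8.25%. These are matches of letters in a short window.

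Signals and differences below are on the log2 scale. Array medians fell into 3 levels: high (7.17 to 7.19; DFO 1 and DMSO 1), low (6.52 to 6.55; Deferasirox 3, DFO 4 and DMSO 4) and middle (6.64 to 6.69; the other 8 arrays, both of OICR623 included). Differences were therefore estimated with limma with the level as a block, and a gene was called when its p, adjusted by the Benjamini-Hochberg method across the 18404 genes, fell under 0.05. Of the high-level arrays, DFO 1 and DMSO 1 held the same value for 5535 genes (30.1%), among them KLF4 and NR4A2, against at most 37 genes in any other of the 78 array pairs. The SD over genes of DFO minus DMSO was 0.142 in the high level, against 0.194 and 0.200 for the middle-level arrays numbered 2 and 3 and 0.209 in the low level. Counts and lost calls are therefore also given without these 2 arrays. Of 11 epithelial markers 7 lay above the median gene (7.46), among them KRT18 (13.02) and KRT8 (12.7), and CDH1 (5.52), KRT20 (5.28), VIL1 (6.998) and CDX1 (7.22) lay below it. Of the markers of other cell types, 1 of 6 for fibroblasts, 0 of 4 for leukocytes and 0 of 4 for endothelium lay above that median. In these bulk samples, fewer cells expressing a gene and less RNA per cell cannot be told apart.

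Against DMSO, 17 of the 39 members were higher under at least 1 compound and 0 passed the test as lower. Under OICR623 3 of 39 were higher (0.337% of all genes were called higher and 0.397% lower). Under Deferasirox 15 of 39 were higher (2.83% of all genes higher and 3.0% lower), and under DFO 13 of 39 (1.89% higher and 2.72% lower). At an unadjusted p under 0.05, limma put 2 members lower under OICR623, 1 under Deferasirox and 2 under DFO. Of the 18404 genes it put 1080, 1710 and 1591 lower at that p. The median difference over the 39 members was 0.06 for OICR623, 0.14 for Deferasirox and 0.10 for DFO, against 0.00 over all genes in each comparison. FOSL2, KLF10 and DUSP5 were called under all 3 compounds, and the 3 comparisons share the 4 DMSO arrays. A further 8 members were called under both Deferasirox and DFO: JUN, JUND, FOSB, EGR3, DUSP1, DUSP6, SPRY1 and IER3. CCN1, DUSP4, KLF6 and MAFF were called under Deferasirox and not DFO, NR4A1 and SPRED2 under DFO and not Deferasirox, and 22 members under none.

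With no block 0 members were called higher under OICR623 (0.0380% of all genes), 0 under Deferasirox (0.0978%) and 1, FOSL2, under DFO (0.109%). The DFO differences of JUN, DUSP1 and KLF10 were the same with no block as with it, at 0.42, 0.78 and 0.51, and lost their calls. In the middle level alone, which needs no block, 1, 8 and 8 members were called under OICR623, Deferasirox and DFO. Shares of all genes called were not counted in this setting or in the next. Without the high-level arrays, a setting chosen after seeing the data, the counts were 4 for OICR623, 13 for Deferasirox and 11 for DFO. SPRY1 was then called under OICR623 (0.39, adjusted p = 0.030). The calls lost were JUND (0.23, adjusted p = 0.060) and CCN1 (0.30, adjusted p = 0.067) under Deferasirox, and JUND (0.24, adjusted p = 0.054) and NR4A1 (0.22, adjusted p = 0.068) under DFO. The DFO differences of FOSL2, DUSP1 and KLF10 were then 1.28, 0.85 and 0.56. Compound arrays lay above the DMSO arrays in every level they shared for 19 members under OICR623 (17.1% of all genes; 1 shared level), 23 under Deferasirox (15.6%; 2 levels) and 16 under DFO (7.61%; 3 levels).

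**Figure D1:**
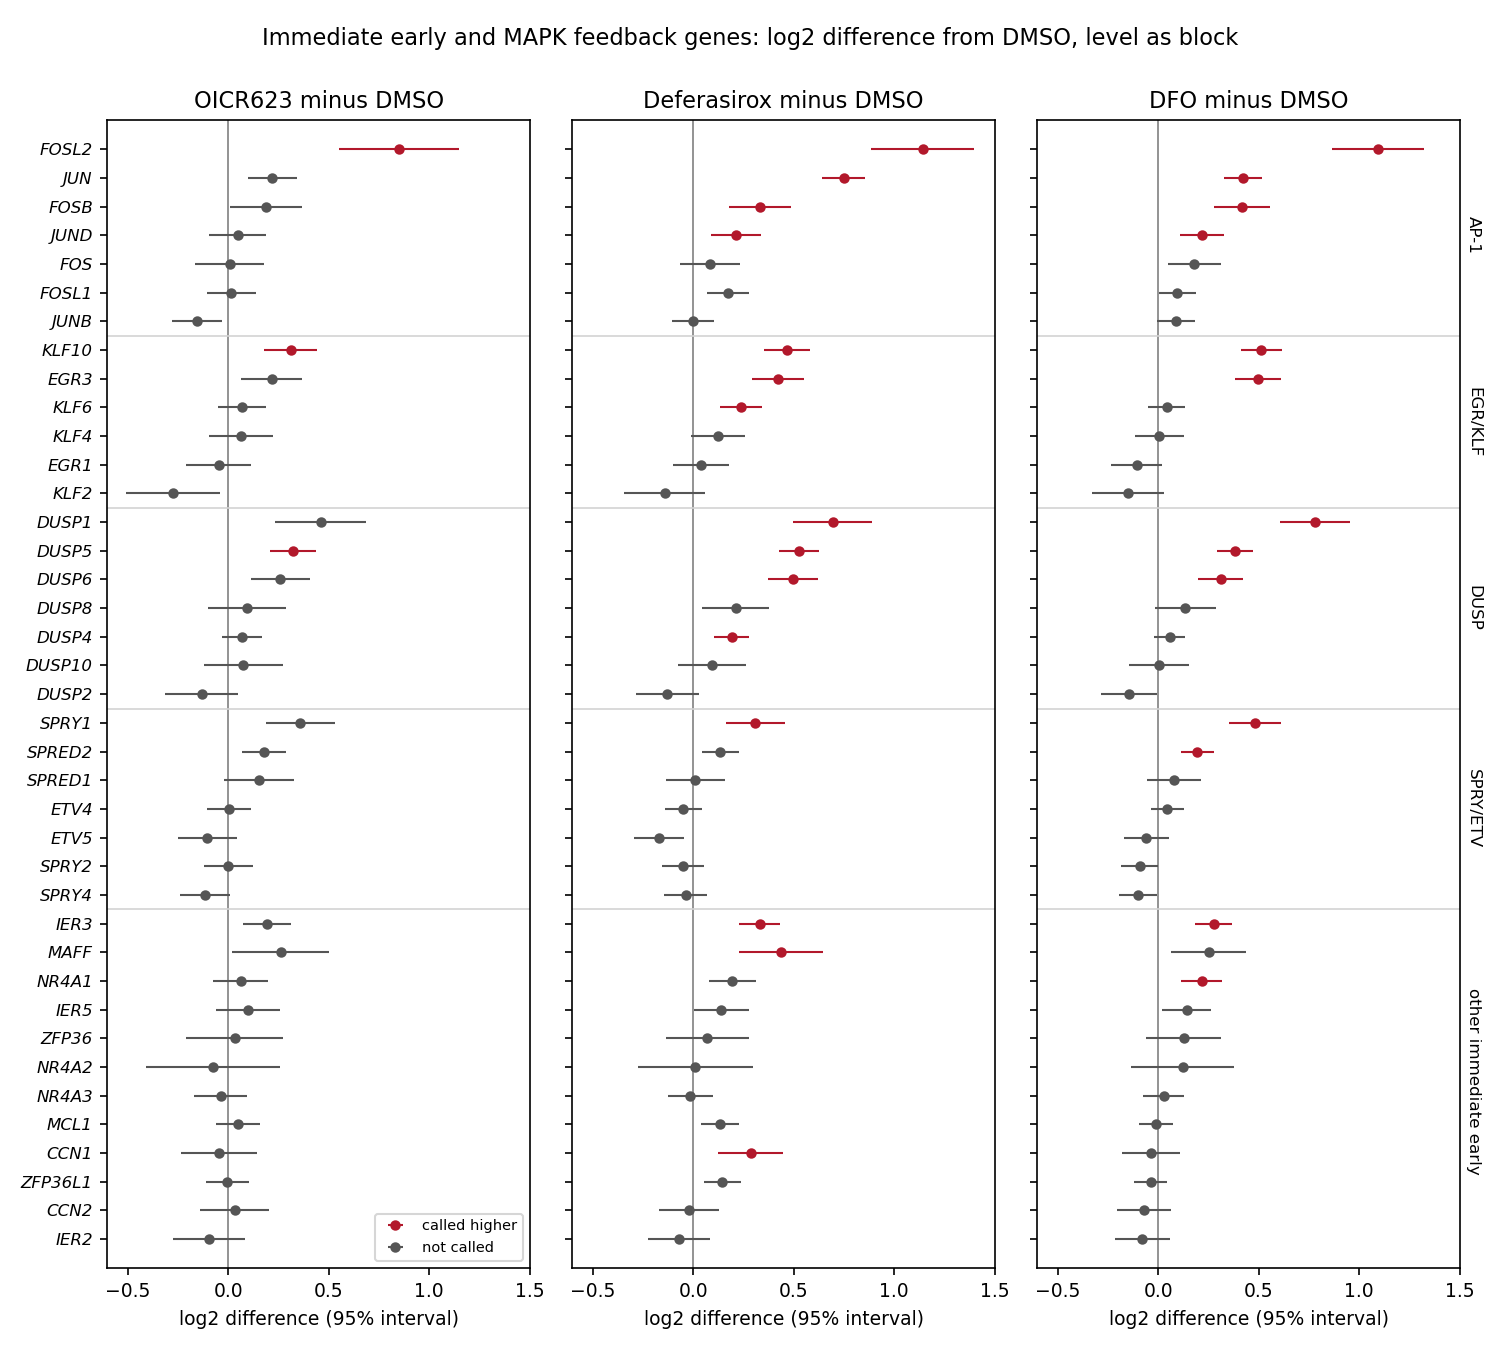
Difference from DMSO of each of the 39 measured members (log2, horizontal axis), 1 panel per compound. Bars are 95% intervals from limma with the array-median level as a block. Red points passed an adjusted p of 0.05 over all genes and grey points did not. FOSL2 lies farthest right in each panel, at 0.85 under OICR623, 1.14 under Deferasirox and 1.09 under DFO. No red point lies below 0.

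The plot of differences orders the members by role group and shows for each the difference with its interval. AP-1 is the dimer of a Jun and a Fos family protein. Of its 7 subunits, 1 was higher under OICR623, 4 under Deferasirox and 4 under DFO, with median differences of 0.05, 0.21 and 0.22.

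FOSL2, which encodes the Fos family subunit Fra-2, is covered by transcript cluster 8041048. Its signal was 11.02 and 10.94 in OICR623, 11.28, 11.27 and 11.07 in Deferasirox and 11.42, 11.32, 11.30 and 11.12 in DFO, against 10.88, 10.05, 10.01 and 9.85 in DMSO, each in order of replicate number. Every array of each compound lay above every DMSO array, the high-level DMSO 1 included, so the groups did not overlap. FOSL2 was the 1 member of the 39 whose compound arrays all lay above all DMSO arrays under any compound. The share of all genes with such a separation was not counted. OICR623 and Deferasirox had no high-level array to set against DMSO 1. The difference from DMSO was 0.85 (SE 0.13, adjusted p = 0.017) for OICR623, 1.14 (SE 0.12, adjusted p = 1.9e-04) for Deferasirox and 1.09 (SE 0.10, adjusted p = 1.1e-04) for DFO, or 1.80-fold, 2.21-fold and 2.13-fold. Within levels DFO exceeded DMSO by 0.54 in the high level, where values were shared between arrays, and by 1.28 and 1.27 in the middle and low levels. The DFO call was kept in all 23 other settings run. The OICR623 call was lost when DMSO 2, DMSO 3 or either OICR623 array was left out (difference 0.79 to 0.89, adjusted p 0.070 to 0.15).

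JUN, the founding Jun subunit and a target of JNK, had signals of 8.87 and 8.84 in OICR623, 9.29, 9.40 and 9.57 in Deferasirox and 9.82, 9.08, 9.06 and 9.16 in DFO, against 9.43, 8.65, 8.66 and 8.69 in DMSO. DMSO 1 stood above the middle-level Deferasirox arrays, so groups overlapped over all arrays, but within each shared level every compound array was above every DMSO array. JUN was higher by 0.75 (SE 0.05, adjusted p = 7.3e-06) in Deferasirox and by 0.42 (SE 0.04, adjusted p = 1.8e-04) in DFO. In OICR623 the difference of 0.22 (95% interval 0.10 to 0.34) had an adjusted p of 0.14.

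FOSB, a Fos subunit with short-lived mRNA, measured 7.56 and 7.45 in OICR623, 7.71, 7.53 and 7.67 in Deferasirox and 8.16, 7.64, 7.74 and 7.76 in DFO, against 7.71, 7.41, 7.35 and 7.16 in DMSO. Within levels all compound arrays were above DMSO. FOSB rose by 0.33 (SE 0.07, adjusted p = 0.018) under Deferasirox and by 0.42 (SE 0.06, adjusted p = 0.0029) under DFO. The Deferasirox call was lost without Deferasirox 1, Deferasirox 3 or DMSO 4 (adjusted p 0.079 to 0.12).

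JUND, the Jun subunit with the most constant expression across conditions, measured 8.58 and 8.79 in OICR623, 8.82, 8.87 and 8.85 in Deferasirox and 9.69, 8.81, 8.90 and 8.88 in DFO, against 9.55, 8.64, 8.62 and 8.60 in DMSO. Deferasirox and DFO arrays were above DMSO within levels and OICR623 arrays were not. Its differences of 0.21 under Deferasirox (adjusted p = 0.0497) and 0.22 under DFO (adjusted p = 0.031) passed narrowly. JUND lost its Deferasirox call without any 1 of all arrays but the 2 of OICR623 (adjusted p 0.055 to 0.19; with no block the JUND value was -0.0060) and its DFO call without any 1 of the DMSO or DFO arrays or Deferasirox 3 (0.051 to 0.14).

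FOS, FOSL1 and JUNB, the remaining AP-1 subunits, were called in no comparison with DMSO. FOS differed by 0.01 under OICR623 (95% interval -0.16 to 0.18), 0.08 under Deferasirox (-0.06 to 0.23) and 0.18 under DFO (0.05 to 0.31, adjusted p = 0.15). FOSL1, which encodes Fra-1, differed by 0.02, 0.17 and 0.10 under the same compounds, with adjusted p of 0.96, 0.063 and 0.30. JUNB differed by -0.16 under OICR623 (-0.28 to -0.03, adjusted p = 0.32), by -0.00 under Deferasirox and by 0.09 under DFO.

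**Figure D2:**
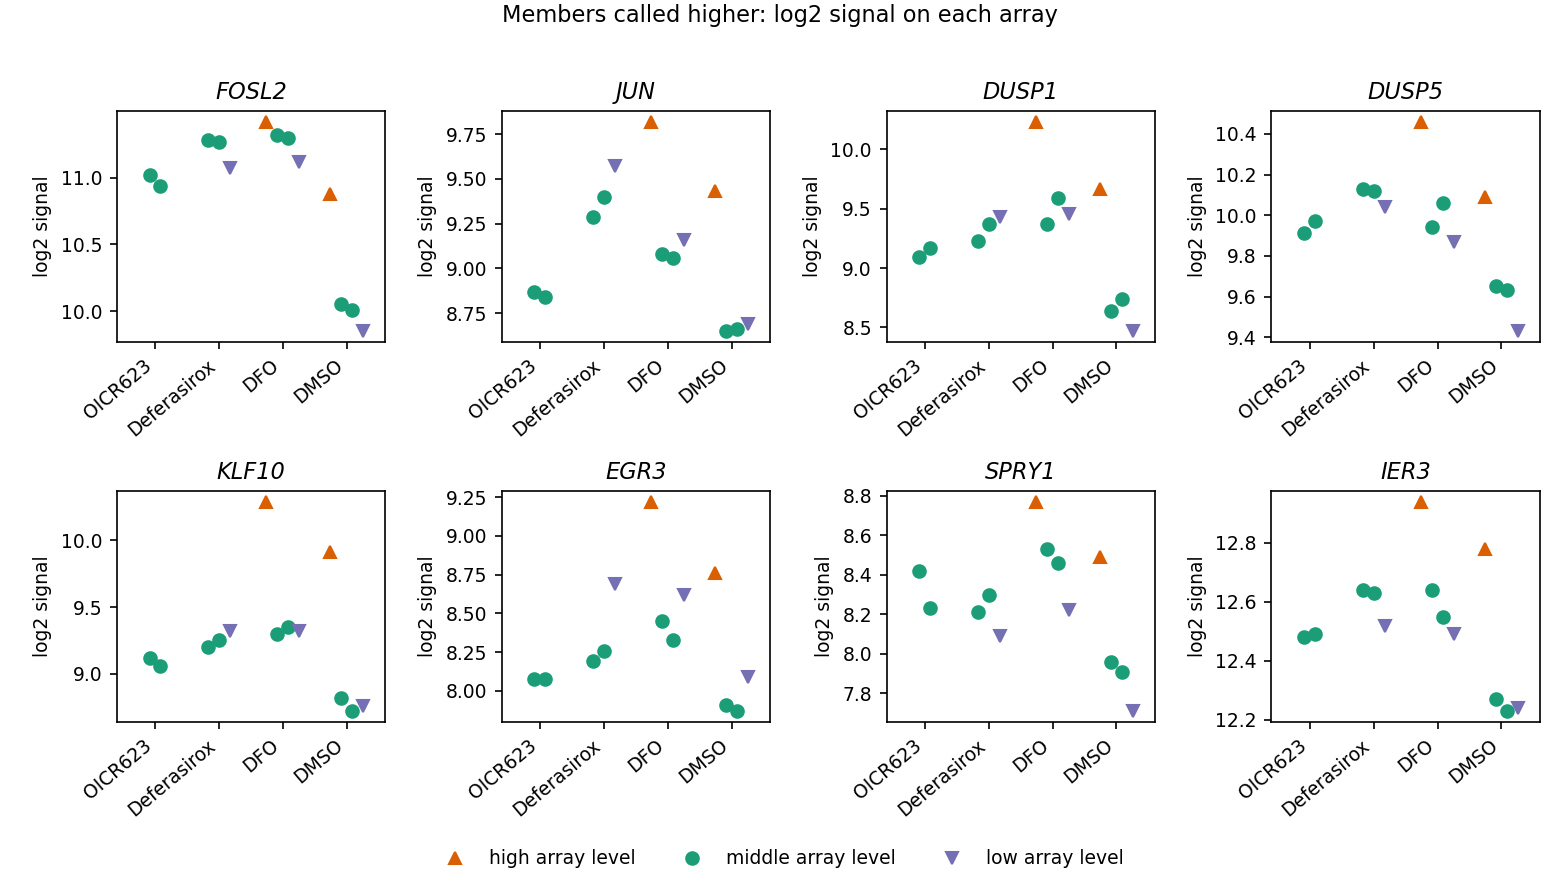
Log2 signal of called members on each of the 13 arrays (vertical axis), with groups from left to right OICR623, Deferasirox, DFO and DMSO; each point is 1 array, and its marker gives the array-median level. FOSL2 shows no overlap of any compound with DMSO, while in JUN, KLF10 and DUSP1 the high-level DMSO 1 reaches the compound arrays of the middle level.

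The plot of signals by array includes KLF10 and EGR3, for which the high-level pair stood apart and compound arrays lay above DMSO inside each level. Of the 6 EGR and KLF genes, arrays lay above DMSO in every shared level for 3 under OICR623, 4 under Deferasirox and 2 under DFO. They lay below it for 1 under each compound. Over all 18404 genes, 3144, 2872 and 1400 lay above in the same comparisons and 3217, 2788 and 1865 below. By the adjusted p, 1 of the 6 EGR and KLF genes was called higher under OICR623, 3 under Deferasirox and 2 under DFO. KLF10, a transcriptional repressor first described as an early gene of the transforming growth factor beta response, measured 9.12 and 9.06 in OICR623, 9.20, 9.25 and 9.32 in Deferasirox and 10.29, 9.30, 9.35 and 9.32 in DFO, against 9.91, 8.82, 8.72 and 8.76 in DMSO. Inside every level the compound arrays exceeded DMSO. KLF10 was higher by 0.31 (SE 0.06, adjusted p = 0.048) in OICR623, by 0.47 (SE 0.05, adjusted p = 3.4e-04) in Deferasirox and by 0.51 (SE 0.05, adjusted p = 7.1e-05) in DFO. Its OICR623 call was lost without any 1 of 11 arrays, all but DMSO 1 and DFO 1 (difference 0.28 to 0.34, adjusted p 0.053 to 0.23).

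EGR3, a zinc-finger factor of the EGR family, measured 8.08 in both OICR623 arrays, 8.19, 8.26 and 8.69 in Deferasirox and 9.22, 8.45, 8.33 and 8.62 in DFO, against 8.76, 7.91, 7.87 and 8.09 in DMSO. Compound arrays were above DMSO in every shared level. EGR3 rose by 0.42 (SE 0.06, adjusted p = 0.0015) under Deferasirox and by 0.50 (SE 0.05, adjusted p = 2.2e-04) under DFO, and differed by 0.22 (adjusted p = 0.24) under OICR623.

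KLF6, a zinc-finger activator, measured 8.48 and 8.49 in OICR623, 8.63, 8.69 and 8.73 in Deferasirox and 8.81, 8.49, 8.49 and 8.55 in DFO, against 8.90, 8.41, 8.35 and 8.50 in DMSO. The DFO array of the high level was below DMSO 1, and Deferasirox arrays were above DMSO within both shared levels. KLF6 was higher by 0.24 (SE 0.05, adjusted p = 0.013) in Deferasirox and differed by 0.04 in DFO (95% interval -0.05 to 0.13). Its call was lost without Deferasirox 2, Deferasirox 3 or DMSO 4 (adjusted p 0.054 to 0.063).

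EGR1, the most studied immediate early zinc-finger factor and a target of ERK through ELK factors, was not called. EGR1 measured 11.88 and 11.81 in OICR623, 11.95, 11.86 and 12.05 in Deferasirox and 12.08, 11.85, 11.69 and 11.83 in DFO, against 12.09, 12.01, 11.87 and 11.90 in DMSO. In DFO each array lay below the DMSO arrays of its own level, and the fitted difference was -0.11 (95% interval -0.23 to 0.02). The EGR1 intervals for OICR623 (-0.21 to 0.11) and Deferasirox (-0.10 to 0.18) included 0. KLF2, an endothelial and lymphocyte quiescence factor, differed by -0.27 under OICR623 (95% interval -0.51 to -0.04, adjusted p = 0.37), -0.14 under Deferasirox and -0.15 under DFO. For KLF2 all OICR623 and all Deferasirox arrays lay below all DMSO arrays, while DFO arrays overlapped with DMSO. Only DFO and DMSO have a high-level array, and the share of all genes separated in this way was not counted. KLF4 differed by 0.06, 0.12 and 0.01, and its DFO 1 and DMSO 1 values were equal.

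Of the 7 DUSP genes, phosphatases for MAPKs, 1 was higher under OICR623, 4 under Deferasirox and 3 under DFO. DUSP1, the nuclear phosphatase MKP-1 that acts on p38, JNK and ERK, measured 9.09 and 9.17 in OICR623, 9.23, 9.37 and 9.43 in Deferasirox and 10.23, 9.37, 9.59 and 9.45 in DFO, against 9.66, 8.64, 8.74 and 8.47 in DMSO. Compound arrays were above DMSO in each shared level. DUSP1 was higher by 0.69 (SE 0.09, 1.62-fold, adjusted p = 9.3e-04) in Deferasirox and by 0.78 (SE 0.08, 1.72-fold, adjusted p = 1.8e-04) in DFO. The OICR623 difference of 0.46 (95% interval 0.23 to 0.69) missed the threshold, at an adjusted p of 0.088.

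DUSP5, a nuclear phosphatase specific to ERK, measured 9.91 and 9.97 in OICR623, 10.13, 10.12 and 10.04 in Deferasirox and 10.46, 9.94, 10.06 and 9.87 in DFO, against 10.09, 9.65, 9.63 and 9.43 in DMSO. Only DMSO 1 reached into the compound arrays, and no overlap was left inside levels. DUSP5 rose by 0.32 (SE 0.05, adjusted p = 0.018) under OICR623, by 0.53 (SE 0.04, adjusted p = 6.7e-05) under Deferasirox and by 0.38 (SE 0.04, adjusted p = 2.2e-04) under DFO. The OICR623 call was lost without DMSO 3 or either OICR623 array (difference 0.29 to 0.35, adjusted p 0.062 to 0.14).

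DUSP6, the cytoplasmic ERK phosphatase MKP-3 and a standard readout of ERK activity, measured 10.66 and 10.51 in OICR623, 10.89, 10.75 and 11.11 in Deferasirox and 12.16, 10.70, 10.60 and 10.92 in DFO, against 11.90, 10.36, 10.25 and 10.62 in DMSO. High-level arrays stood more than 1 above the rest in both groups, and inside levels the compound arrays were higher. DUSP6 rose by 0.50 (SE 0.06, adjusted p = 4.3e-04) under Deferasirox and by 0.31 (SE 0.05, adjusted p = 0.0049) under DFO, and differed by 0.26 (adjusted p = 0.14) under OICR623.

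DUSP4, a nuclear phosphatase for ERK and JNK, measured 7.72 and 7.75 in OICR623, 7.86, 7.84 and 7.46 in Deferasirox and 8.32, 7.71, 7.72 and 7.29 in DFO, against 8.21, 7.72, 7.65 and 7.24 in DMSO. Deferasirox arrays were above DMSO within both levels, while DFO and DMSO arrays overlapped in the middle level. DUSP4 was higher by 0.19 (SE 0.04, adjusted p = 0.014) in Deferasirox, a call lost without Deferasirox 1, Deferasirox 3, DMSO 3 or DMSO 4 (adjusted p 0.052 to 0.099). DUSP2, DUSP8 and DUSP10 were called under no compound; DUSP8, which acts on JNK and p38, differed by 0.09, 0.21 and 0.14 under OICR623, Deferasirox and DFO, with adjusted p of 0.80, 0.16 and 0.38, and DUSP2 by -0.13, -0.13 and -0.14.

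**Figure D3:**
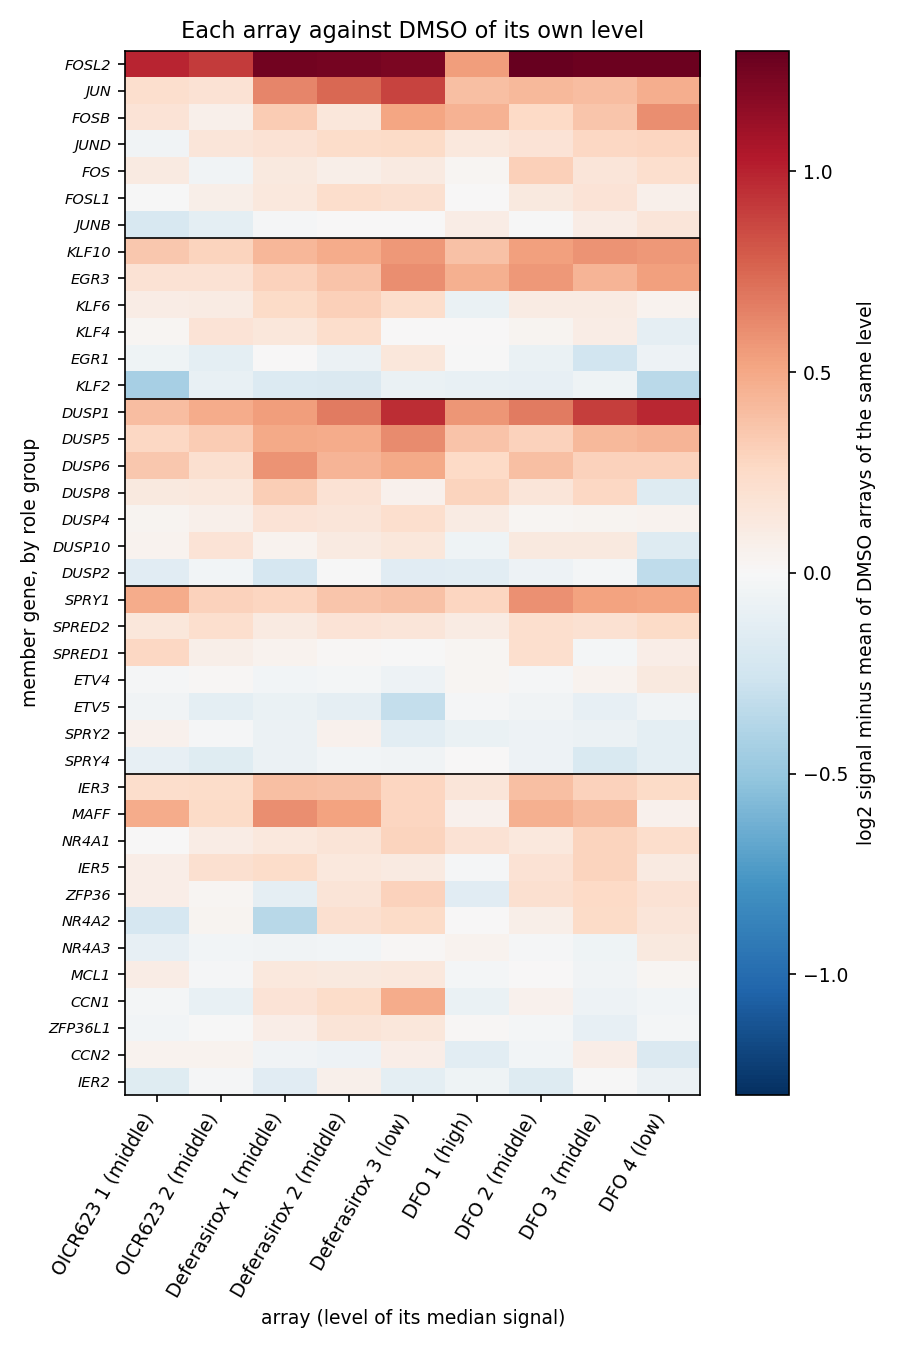
Log2 signal of each measured member (rows, by role group) on each compound array (columns, OICR623, Deferasirox and then DFO). Values are differences from the mean of the DMSO arrays of the same array-median level, and DMSO has no column. FOSL2 and DUSP1 are raised across the compound columns, while SPRY2, SPRY4, ETV4 and ETV5 stay near 0 or below it.

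The map of arrays against members sets each array beside DMSO of its own level, and the rows of DUSP1, DUSP5 and SPRY1 are positive across the compound columns. Of the 7 Sprouty, Spred and ETV genes, 0 were higher under OICR623 (2 at an unadjusted p under 0.05 in limma), 1 under Deferasirox and 2 under DFO. At that unadjusted p, 883 of the 18404 genes were higher under OICR623. SPRY1, a Sprouty inhibitor of receptor signalling to Ras, measured 8.42 and 8.23 in OICR623, 8.21, 8.30 and 8.09 in Deferasirox and 8.77, 8.53, 8.46 and 8.22 in DFO, against 8.49, 7.96, 7.91 and 7.71 in DMSO. Compound arrays were above DMSO inside every level. SPRY1 rose by 0.31 (SE 0.07, adjusted p = 0.020) under Deferasirox and by 0.48 (SE 0.06, adjusted p = 6.8e-04) under DFO, and its difference of 0.36 under OICR623 had an adjusted p of 0.075. The Deferasirox call was lost without DMSO 2, DMSO 3, DMSO 4, Deferasirox 2 or Deferasirox 3 (adjusted p 0.059 to 0.12).

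SPRED2, which blocks activation of RAF by Ras, measured 11.07 and 11.14 in OICR623, 11.04, 11.10 and 10.74 in Deferasirox and 11.57, 11.14, 11.12 and 10.83 in DFO, against 11.46, 10.93, 10.92 and 10.58 in DMSO. Inside levels all compound arrays were above DMSO. SPRED2 was higher by 0.20 (SE 0.04, adjusted p = 0.013) in DFO, and its differences of 0.18 in OICR623 and 0.14 in Deferasirox had adjusted p of 0.17 and 0.097. In a fit of the 8 DFO and DMSO arrays blocked by replicate number the DFO value was 0.20, with an adjusted p of 0.054. In the level-blocked fit, leaving out DFO 4 or DMSO 4 gave an adjusted p of 0.067 to 0.068, so the call was lost.

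Of the other Sprouty and ETV genes, none was called against DMSO under any compound. SPRY2 differed by 0.00 (95% interval -0.12 to 0.12) under OICR623, -0.05 (-0.15 to 0.05) under Deferasirox and -0.09 (-0.19 to 0.00) under DFO. SPRY4 differed by -0.11 (-0.24 to 0.01), -0.04 (-0.14 to 0.07) and -0.10 (-0.20 to -0.01) under the same compounds, and in each the arrays lay below the DMSO arrays of their levels. ETV4 differed by 0.01 (-0.10 to 0.11), -0.05 (-0.14 to 0.04) and 0.05 (-0.04 to 0.13). ETV5 differed by -0.10 (-0.25 to 0.04), -0.17 (-0.30 to -0.04, adjusted p = 0.13) and -0.06 (-0.17 to 0.05). For ETV5 all 3 Deferasirox arrays, none of them high-level, lay below all 4 DMSO arrays. How many of all genes were separated like this was not counted. SPRED1 differed by 0.15, 0.01 and 0.08. Among SPRY2, SPRY4, ETV4 and ETV5 the interval bound farthest from 0 was the -0.30 of ETV5 under Deferasirox.

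**Figure D4:**
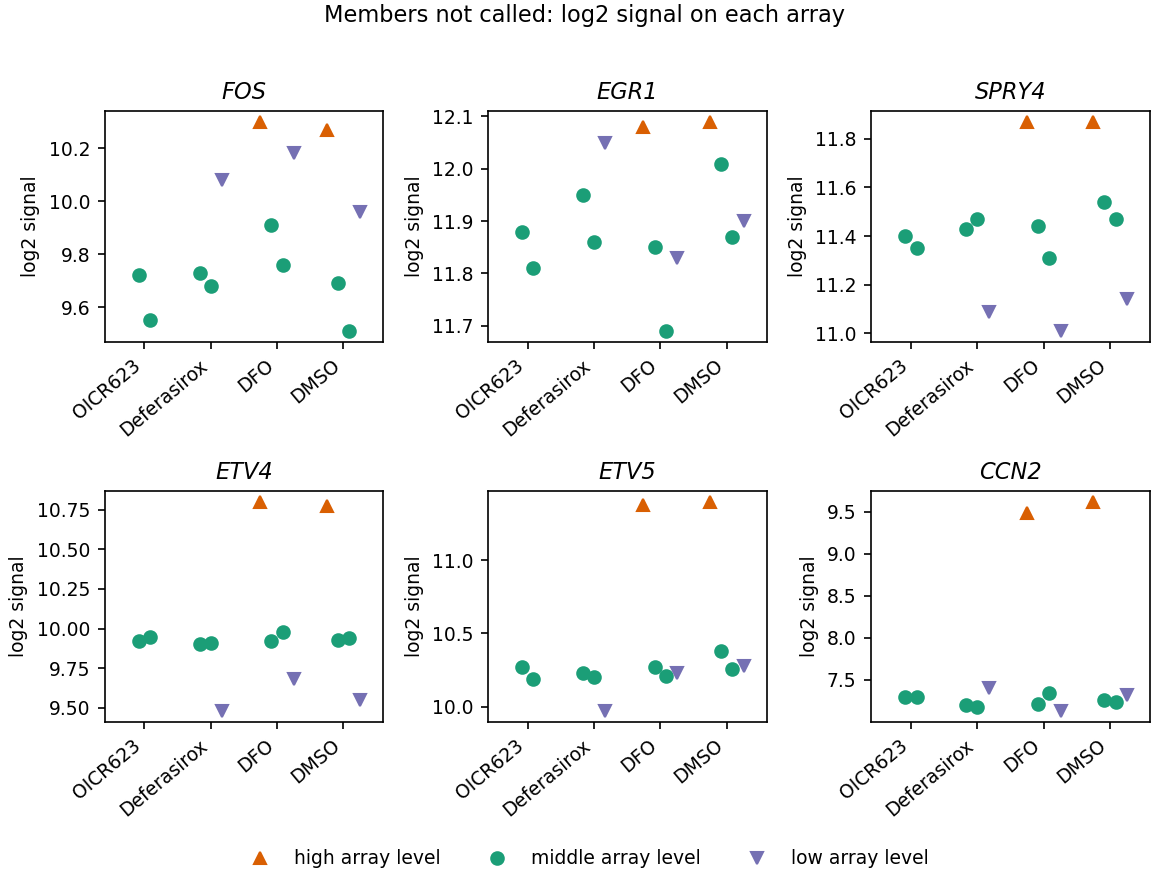
Log2 signal on each of the 13 arrays (vertical axis) of members that passed the test under no compound, with groups from left to right OICR623, Deferasirox, DFO and DMSO; each point is 1 array and its marker gives the array-median level. ETV5 in Deferasirox 3 lies 0.31 below DMSO of its level and EGR1 in DFO 3 lies 0.25 below, while the high-level arrays of CCN2 stand above 9 and all others below 8.

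The plot of uncalled members shows that for CCN2 the spread between levels was far wider than that between groups. Of the 12 other immediate early genes, 0 were higher under OICR623 (2 at an unadjusted p under 0.05 in limma, against 883 of the 18404 genes), 3 under Deferasirox and 2 under DFO. IER3, a stress-inducible protein that limits the dephosphorylation of ERK, measured 12.48 and 12.49 in OICR623, 12.64, 12.63 and 12.52 in Deferasirox and 12.94, 12.64, 12.55 and 12.49 in DFO, against 12.78, 12.27, 12.23 and 12.24 in DMSO. Compound arrays were above DMSO inside each level. IER3 rose by 0.33 (SE 0.05, adjusted p = 0.0017) under Deferasirox and by 0.28 (SE 0.04, adjusted p = 0.0030) under DFO, and differed by 0.19 (adjusted p = 0.18) under OICR623.

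MAFF, a small Maf factor that pairs with NRF family proteins, measured 7.94 and 7.70 in OICR623, 8.06, 7.98 and 7.93 in Deferasirox and 8.52, 7.92, 7.87 and 7.71 in DFO, against 8.46, 7.35, 7.56 and 7.65 in DMSO. Inside levels all compound arrays were above DMSO. MAFF was higher by 0.44 (SE 0.09, adjusted p = 0.020) in Deferasirox, and its differences of 0.26 in OICR623 and 0.25 in DFO had adjusted p of 0.42 and 0.15. The Deferasirox call was lost without DMSO 3 or any 1 Deferasirox array (adjusted p 0.058 to 0.082).

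NR4A1, an orphan nuclear receptor, measured 7.47 and 7.57 in OICR623, 7.61, 7.64 and 7.85 in Deferasirox and 8.87, 7.61, 7.76 and 7.79 in DFO, against 8.68, 7.43, 7.51 and 7.56 in DMSO. Deferasirox and DFO arrays were above DMSO inside levels and OICR623 arrays overlapped with it. NR4A1 was higher by 0.22 (SE 0.05, adjusted p = 0.024) in DFO and differed by 0.19 (adjusted p = 0.058) in Deferasirox. Its DFO call was lost without DMSO 1, DMSO 2, DMSO 4, DFO 1, DFO 3 or DFO 4 (adjusted p 0.068 to 0.11).

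CCN1, a secreted matrix-associated protein, measured 7.09 and 7.02 in OICR623, 7.29, 7.35 and 8.08 in Deferasirox and 9.70, 7.17, 7.05 and 7.56 in DFO, against 9.79, 7.21, 7.02 and 7.60 in DMSO. The low-level and high-level arrays stood above the middle level in each group that had them. CCN1 was higher by 0.29 (SE 0.07, adjusted p = 0.047) in Deferasirox. That call was lost without DMSO 1, DMSO 3, DMSO 4, DFO 1, DFO 3, DFO 4, Deferasirox 2, Deferasirox 3 or either OICR623 array (adjusted p 0.061 to 0.23), and with no block the CCN1 value was -0.33.

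The other 8 genes of this group, IER2, IER5, ZFP36, ZFP36L1, NR4A2, NR4A3, MCL1 and CCN2, passed under no compound. MCL1, an anti-apoptotic BCL2 relative with short-lived mRNA, differed by 0.05, 0.13 and -0.01 under OICR623, Deferasirox and DFO, with adjusted p of 0.82, 0.11 and 0.94. ZFP36, which promotes decay of AU-rich mRNAs, differed by 0.03, 0.07 and 0.13, and its relative ZFP36L1 by -0.00, 0.15 and -0.04. IER2 differed by -0.10, -0.07 and -0.08.

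Between compounds, at doses that differ, JUN was the 1 member called in any of the 3 pairs. JUN was lower by 0.53 in OICR623 than in Deferasirox (difference -0.53, 95% interval -0.65 to -0.40, adjusted p = 0.0090 over all genes), where 0.0869% of genes were called in either direction. Both OICR623 arrays lay below all 3 Deferasirox arrays. The call was lost without either OICR623 array (adjusted p 0.070 to 0.080). At an unadjusted p under 0.05 in limma, 14 members, JUN included, were lower in OICR623 than in Deferasirox and 0 higher. Of the 18404 genes, 738 were higher and 833 lower in this pair. OICR623 against DFO called 0 members (9 at an unadjusted p under 0.05 in limma, all lower) and 0.168% of genes. At that unadjusted p, 546 of the 18404 genes were higher and 498 lower. Deferasirox against DFO called 0 members (11 at an unadjusted p, 9 higher and 2 lower) and 0.0435% of genes. At the unadjusted p, 1008 genes were higher and 839 lower in this pair. JUN differed by 0.33 between Deferasirox and DFO (0.22 to 0.43, adjusted p = 0.056). For FOSL2 the interval was -0.60 to 0.01 for OICR623 minus Deferasirox, -0.54 to 0.05 for OICR623 minus DFO and -0.21 to 0.30 for Deferasirox minus DFO. For DUSP1 the same intervals were -0.47 to -0.00, -0.55 to -0.09 and -0.28 to 0.11, with adjusted p of 0.58, 0.65 and 0.81.

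The kinases upstream were mostly not called. Of 23 measured genes of the Ras, RAF, MEK and ERK cascade, 0 were called under OICR623, 3 under Deferasirox (2 higher, 1 lower) and 3 under DFO (all higher). ELK3, a partner of serum response factor, rose by 0.42 under Deferasirox (adjusted p = 0.0025) and by 0.35 under DFO (adjusted p = 0.0050). MAP2K1, which encodes MEK1, rose by 0.48 and 0.35, with adjusted p of 0.0045 and 0.017. The adaptor GAB1 rose by 0.29 under DFO (adjusted p = 0.019), and SRF, serum response factor itself, fell by 0.25 under Deferasirox (adjusted p = 0.0049). Of 15 measured genes of the JNK and p38 cascades, 0 were called under OICR623 and MAP3K1 alone fell under Deferasirox, by 0.31, and under DFO, by 0.30, with adjusted p of 0.025 and 0.019.

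Of 29 measured immediate early or feedback genes outside the group, 2 were higher under OICR623, 7 were higher and 2 lower under Deferasirox, and 5 were higher and 3 lower under DFO. ERRFI1, whose protein blocks the EGF receptor in a feedback loop, was higher by 1.77 (SE 0.13) in OICR623, 2.21 (SE 0.11) in Deferasirox and 1.96 (SE 0.10) in DFO. BTG1, an antiproliferative gene, was higher by 0.76, 1.10 and 0.86. CSRNP1, a nuclear protein induced by AXIN1, was higher by 0.76 in Deferasirox and by 0.67 in DFO. SRF, lower under Deferasirox, is in this list and in the cascade list and is counted in both. MYC, the proto-oncogene and an early growth factor response gene, fell by 0.41 under DFO (adjusted p = 0.0010).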

How the data were processed

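RNA of 13 arrays of SW480 cells was analysed as deposited. Each transcript cluster has 1 deposited log2 signal on each array; the submitters' processing notes name GCRMA and limma, without version or order, and the background and summarisation steps are not given in the sources used here. Of 32321 clusters 19158 had 1 gene symbol, 1388 several and 11775 none in the platform annotation. Where a gene had several clusters the one with the highest mean was kept, which left 18404 genes; each member had 1 cluster. No filter on dim genes was applied, and the files hold no detection calls.

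Samples were grouped by the treatment in the labels. Differences were fitted with limma 3.58.1 (lmFit and eBayes, R 4.3.3; statmod 1.5.0 for the random block) over all 13 arrays, with 1 mean per group and the array-median level, separated at gaps over 0.05, as a block. Scripts were tested on simulated data. The number of arrays limits the precision. The series text describes the replicates as separate experiments.

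The members, lists, levels and naming rule were chosen with earlier results of these data known. Values on every array are given for up to 4 called members of each role group with the smallest adjusted p, and context genes for up to 4 called per list and comparison. Alternatives dropped the block, centred or quantile-normalized the arrays, took the level as a random block, blocked on replicate number, used the middle level alone, averaged a gene's clusters, filtered dim genes and left out each array.

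Same-numbered DFO and DMSO arrays deviated together from their group means (r across genes 0.945, 0.662, 0.738 and 0.788 for numbers 1 to 4), which is the only ground for treating them as pairs. These arrays also share a level. In residuals of the level-blocked fit the r was 0.0813, 0.125 and -0.533 for numbers 2 to 4; number 1 is -1 by construction, since its 2 arrays fill the level. Numbers 1 and 4 each have 1 DFO and 1 DMSO array in their level, so there pairing and level cannot be told apart.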

Additional observations from a re-analysis of the deposited data

Results flagged for a closer look

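In 16 of the 78 sets of 4 arrays tested (39 members in DFO and in DMSO), 1 array stood apart from the other 3 beyond the 95% critical value of Dixon's test, which chance passes in about 1 set in 20. The value given is the gap to the nearest array over the whole range. In DFO 1 it was 0.868 for JUN, 0.896 for JUND, 0.95 for KLF10, 0.949 for ETV5, 0.853 for NR4A1 and 0.912 for CCN2. In DMSO 1 it was 0.951 for JUN, 0.95 for JUND, 0.909 for FOSL1, 0.918 for KLF10, 0.898 for ETV5, 0.921 for IER3, 0.899 for NR4A1 and 0.966 for CCN2. All these arrays were higher than the others of their group, and they are the 2 arrays of the high level. DUSP10 in DMSO 3 (0.84) and NR4A2 in DMSO 4 (0.949) lay below the rest. CCN2 had a signal of 9.48 in DFO 1, against 7.13 to 7.34 in the other DFO arrays, and 9.62 in DMSO 1, against 7.24 to 7.32 in the other DMSO arrays.

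The effect of OICR623 on JUN differed from that of Deferasirox by -0.53, by a limma test of the difference itself at doses that are not matched.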

How the results depend on the processing

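With no block the members called higher were 0 for OICR623, 0 for Deferasirox and 1 for DFO, against 3, 15 and 13. With arrays centred on their median they were 1, 4 and 4, with quantile normalization 1, 4 and 4, and in the middle level alone 1, 8 and 8. The filter to genes above the lower quartile gave 5 for OICR623. Shares of all genes called were counted only for the main fit and the fit with no block. No member was called lower in any setting. At an unadjusted p under 0.05 limma put 2, 1 and 2 lower, against 1080, 1710 and 1591 of the 18404 genes. OICR623 against DFO called 1 member, against 0, without both high-level arrays, a setting chosen after seeing the data. Deferasirox against DFO called 1, against 0, with the level as a random block and with the filter. JUN between OICR623 and Deferasirox gave 0 calls with no block, centring, quantile normalization, the replicate block or the middle level alone. The cause was not tested. Leaving out each array gave 0 to 4 for OICR623 (0 without OICR623 1, OICR623 2 or DMSO 3), 8 to 14 for Deferasirox (8 without Deferasirox 3) and 10 to 13 for DFO. It gave 0 to 1 for OICR623 against DFO, 0 for Deferasirox against DFO and 0 to 1 for OICR623 against Deferasirox.

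With the replicate number as a block over all arrays the counts were 0 for OICR623, 1 for Deferasirox and 1 for DFO. On the 8 DFO and DMSO arrays the replicate block gave 12 and lost SPRED2 alone. Without the block the median of all genes shifted by -0.11 for OICR623 and -0.15 for Deferasirox, and with the replicate block over all arrays by -0.27 and -0.24. Under Deferasirox, JUND turned to -0.0060 with no block and -0.0801 with the replicate block, DUSP4 to -0.1410 with the replicate block, and CCN1 to -0.3336 with no block, -0.1656 centred, -0.1370 quantile-normalized and -0.4367 with the replicate block. KLF10 under OICR623 turned to -0.1633 with the replicate block. Without detection calls, low signals could not be set against background.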

Other observations

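CCN1 and CCN2, secreted matrix-associated proteins and known targets of YAP, differed more between array-median levels than between any compound and DMSO. High-level arrays exceeded middle-level arrays of DFO and DMSO by 2.63 for CCN1 and 2.29 for CCN2, and 27 and 57 of the 18404 genes had a larger shift. DUSP6 shifted by 1.55, with 272 genes above it. The median shift was 0.50 over the 39 members and 0.57 over all genes.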
